A study of Mus musculus with 6 samples.

Results

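The 9 genes Rnase4, Pappa2, Serping1, C8b, Olfm1, Gfra3, Il1r1, Pdk4 and Sesn3 were proposed as accessory genes of the islet alpha cell, the glucagon-making cell. They were chosen by measured values of these plates, namely their levels in glucagon-high wells set against the other hormone classes and against the 2 operations. They are 9 of the 52542 gene rows of the tables. They were read in 226 glucagon-high wells, in which glucagon (Gcg) made up at least 2.3% of unique molecular identifiers (UMIs), of the 2115 wells that were kept out of 2304. Levels there were set against 62 wells high in pancreatic polypeptide (Ppy-high), 992 beta wells (insulin) and 219 delta wells (somatostatin), each high in that hormone only.

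Islets were profiled by MARS-seq, which counts UMIs at the 3′ end of transcripts in single sorted cells, 1 per plate well. The ppx group came from mice 4 weeks after a partial pancreatectomy, an operation that removes part of the pancreas, and the sham group from mice 4 weeks after a sham operation. Each group had 3 plates of 384 wells. All mice of both groups were male Sox9-CreER; tdTomato animals, given tamoxifen (8 mg) for 2 weeks beginning at week 10 of life and operated on in week 12, so that the Cre, the reporter and the drug were common to both groups. Sox9 drives the Cre in duct-type cells, and tdTomato marks their lineage. The sort was tomato-positive for replicate 1 in both groups. It was tomato-negative for the other ppx plates and for sham replicate 3, while on sham replicate 2 positive cells filled 4 rows only. The plate was the replicate. No label ties a plate to a mouse, so that the p-values measure the spread between plates, which may be technical.

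The alpha cell releases glucagon when glucose is low, and glucagon makes the liver release glucose. Pancreatic polypeptide (gamma) cells, insulin-making beta cells and somatostatin-making delta cells share the islet with it. The proteins of the 9 genes have unlike roles: a secreted ribonuclease, a protease, complement proteins, a secreted neural glycoprotein, receptors for a neurotrophic factor and a cytokine, and intracellular metabolic regulators.

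Promoter sequence is shown for 3 of the genes that had all ppx plates below all sham plates in glucagon-high wells and a CCAAT box before the start. Il1r1 also met both conditions and is not shown. The CCAAT box, bound by the general factor NF-Y, was searched on both strands of the 250 bases before the start site. In the RefSeq table of promoters on GRCm38.p6, 7 of the 9 genes had 10 promoter windows. The letters CCAAT or their reverse complement ATTGG stood in 6 of the 10 windows and in 33.8% of the 32851 windows of the table. They are given in capitals in the following windows, all on the plus strand of the genome.

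Rnase4 promoter, chr14:51090827-51091076: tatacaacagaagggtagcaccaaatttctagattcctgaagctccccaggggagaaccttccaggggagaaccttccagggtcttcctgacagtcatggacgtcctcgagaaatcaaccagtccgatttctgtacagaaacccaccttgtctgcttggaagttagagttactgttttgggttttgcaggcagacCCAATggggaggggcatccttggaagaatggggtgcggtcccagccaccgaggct

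C8b promoter, chr4:104766067-104766316: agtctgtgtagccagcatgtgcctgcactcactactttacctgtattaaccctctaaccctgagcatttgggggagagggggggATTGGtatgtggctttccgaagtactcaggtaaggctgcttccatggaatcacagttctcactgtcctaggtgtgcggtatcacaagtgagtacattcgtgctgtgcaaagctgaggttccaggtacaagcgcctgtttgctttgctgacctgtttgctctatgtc

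Sesn3 promoter, chr9:14276051-14276300: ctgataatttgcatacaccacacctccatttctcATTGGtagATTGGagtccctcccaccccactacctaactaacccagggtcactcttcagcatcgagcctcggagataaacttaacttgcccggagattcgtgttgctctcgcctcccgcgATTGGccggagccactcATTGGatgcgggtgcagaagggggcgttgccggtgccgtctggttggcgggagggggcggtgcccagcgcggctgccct

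The box began 55 bases before the start in Rnase4 and 166 bases before it in C8b. Sesn3 held 4, beginning 216, 208, 96 and 79 bases before the start. Of the other genes without overlap, 1 of the pair of Il1r1 windows held 1 box, beginning 52 bases before the start. The other Il1r1 window and both Olfm1 windows held none, as did the other Rnase4 window. Pappa2 and Pdk4, whose groups overlapped, held 1 each, so that 6 of the 7 genes had a box. The TATA box TATAAA (12.4% of all windows), the FoxO motif GTAAACA (3.17% of all windows), the homeodomain core TAATTA (4.84%) and the cAMP response element TGACGTCA (1.55%) stood in 0 of the 10 windows. The CCAAT and TATA boxes were picked after matches in these windows had been counted, so the 6 of 10 is a description, and all of these are matches of letters only.

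Levels are CPM, the UMIs of the summed wells of a class on a plate scaled to a total of 1000000. Glucagon-high wells held 133194, 84600 and 41379 UMIs on ppx replicates 1, 2 and 3 (17, 20 and 10 wells) and 309402, 291073 and 226278 UMIs on sham replicates 1, 2 and 3 (51, 64 and 64 wells), so that 1 UMI weighed more in ppx sums. No well barcode was shared between plates. Gcg, the gene that defined the wells, averaged 239729 ± 37578 CPM in ppx plates and 212451 ± 48082 CPM in sham plates (SD, n = 3 each). The alpha label was checked on the other 25 genes of an alpha marker list, summed over plates. Of these, 18 were higher and 5 lower in glucagon-high than in Ppy-high wells, 21 higher and 3 lower than in beta wells, and 21 higher and 2 lower than in delta wells. The transcription factor gene Irx2 stood at 155 CPM in glucagon-high, 4.41 CPM in Ppy-high, 1.57 CPM in beta and 2.84 CPM in delta wells. Many of the wells carried other hormones. Ppy reached 2% in 41.2%, 30% and 80% of glucagon-high wells on ppx replicates 1, 2 and 3, against 23.5%, 7.81% and 17.2% on sham replicates 1, 2 and 3. Somatostatin-high wells were 9, 3 and 2 of them on the ppx plates and 34, 15 and 4 on the sham plates, and wells high in glucagon alone were 3, 12 and 2 against 15, 45 and 48.

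The 9 genes were spread unequally over the hormone classes. These values chose the genes, so that the following comparison of classes is a description with no test. Over all genes tested at an adjusted p of 0.05 (edgeR), 11.8% of 584 genes differed between glucagon-high and Ppy-high wells, 33.8% of 3436 between glucagon-high and beta wells and 14.2% of 1771 between glucagon-high and delta wells, and nothing is read from these shares about the 9 genes. Levels include 2 delta wells on ppx replicate 2 and 4 Ppy-high wells on sham replicate 1, which were too few for the fits. In the sums over 6 plates, 96.8% of all Gfra3 UMIs, 82.9% of Pdk4 UMIs, 64.1% of Pappa2 UMIs and 55% of C8b UMIs fell in glucagon-high wells, which held 13.4% of all UMIs. The same wells held 28.4% of Serping1, 25.8% of Olfm1, 18.1% of Sesn3, 11.6% of Rnase4 and 8% of Il1r1 UMIs. Beta wells held 73.2% of Il1r1 and 69.5% of Rnase4 UMIs, with 55% of all UMIs.

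**Figure D1:**
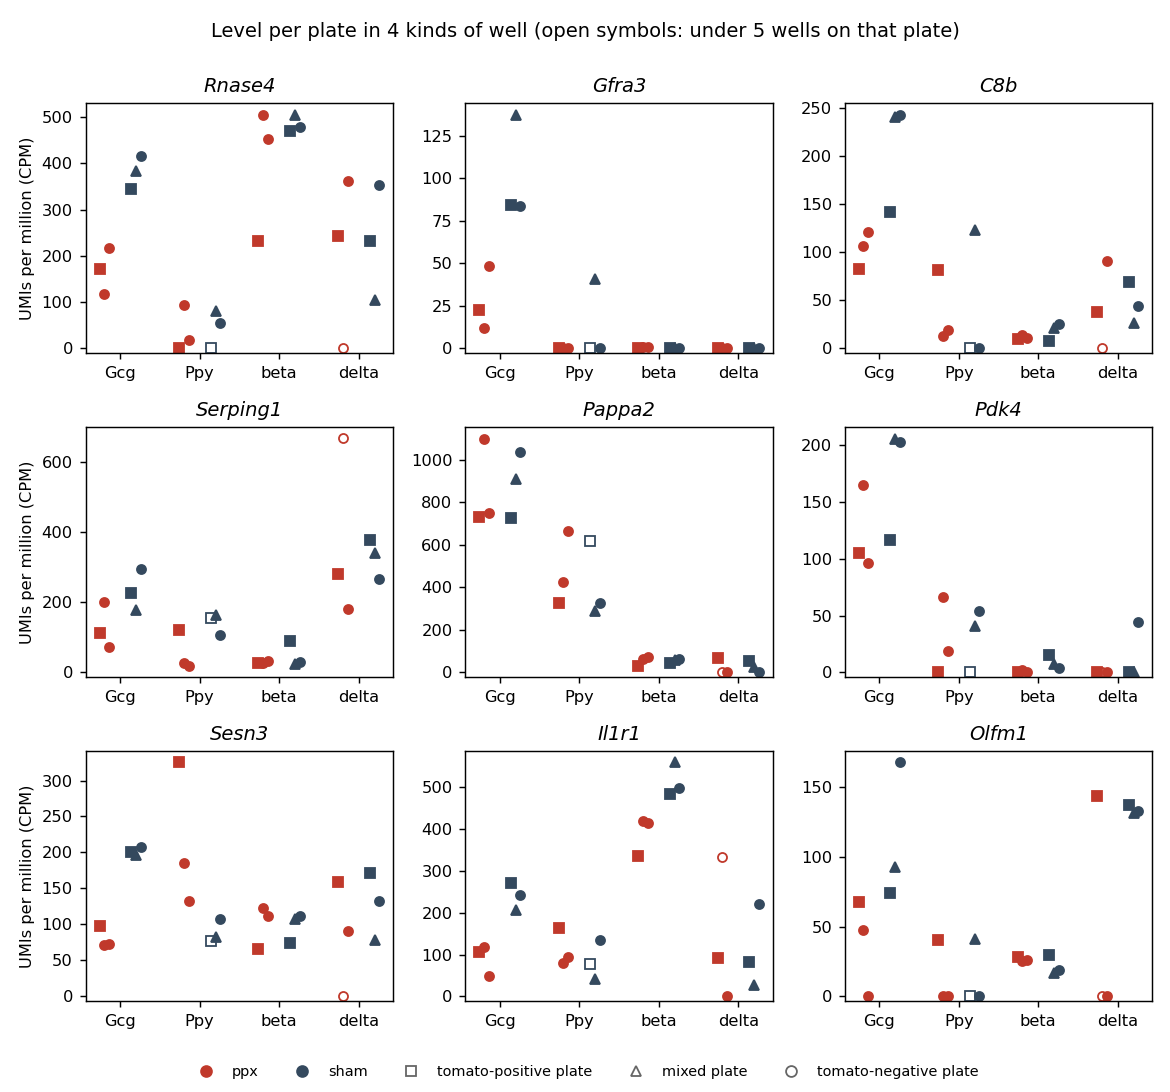
Level of each gene (CPM of summed wells, linear axis) on each plate in glucagon-high (Gcg), Ppy-high (Ppy), beta and delta wells, ppx left of sham within each class. Gfra3, C8b, Pappa2 and Pdk4 were higher in glucagon-high than in beta and delta wells on all 6 plates, whereas Rnase4 and Il1r1 were higher in beta wells on all 6.

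Pappa2 encodes pappalysin-2, a secreted metalloprotease that cuts insulin-like growth factor binding proteins. It averaged 875 ± 165 CPM in glucagon-high wells, 441 ± 163 CPM in Ppy-high wells, 55.2 ± 16.1 CPM in beta wells and 24.9 ± 30.4 CPM in delta wells (SD over 6 plates). Glucagon-high wells were above the Ppy-high wells on 6 of 6 plates, and Ppy-high wells were the class next to them in level. In edgeR fits with plate as a block, its log2 fold change was 0.85 ± 0.18 (SE) against Ppy-high wells, 4.09 ± 0.13 against beta wells and 4.18 ± 0.26 against delta wells.

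Gfra3 encodes the receptor subunit that binds artemin, a neurotrophic factor of the GDNF family that signals through Ret. It had 91 UMIs in glucagon-high wells, 1 in Ppy-high, 2 in beta and 0 in delta wells. The pooled level was 83.8 CPM in glucagon-high wells, and 0 of 352435 delta UMIs allows up to 8.51 CPM, which made it at least 9.84-fold higher in glucagon-high wells, with the limit taken over all delta wells. The ratio to beta wells rested on 2 beta UMIs and was 187 (95% counting interval 50.2 to 1565). Its partner receptor Ret had 9 UMIs in ppx and 28 in sham glucagon-high wells, and artemin (Artn) had none.

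Pdk4 encodes a kinase that shuts off pyruvate dehydrogenase and is raised in fasting in many tissues. Its mean was 149 ± 49.4 CPM in glucagon-high wells, 30.04 ± 28.1 CPM in Ppy-high wells and 4.79 ± 5.6 CPM in beta wells, and 1 UMI was seen in delta wells. The log2 fold change against beta wells was 5.50 ± 0.36. Of the other mitochondrial kinases of the enzyme, Pdk1, Pdk2 and Pdk3 had 2, 0 and 5 UMIs in ppx and 14, 6 and 7 in sham glucagon-high wells.

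C8b encodes the beta chain of complement component 8, part of the membrane attack complex, and is known as a liver gene. It averaged 156 ± 69.3 CPM in glucagon-high wells, 39.4 ± 50.8 CPM in Ppy-high, 14.6 ± 7.1 CPM in beta and 44.6 ± 31.8 CPM in delta wells. The genes of the other subunits of the complex were hardly counted. C8g had 1 UMI in ppx and 1 in sham glucagon-high wells, and C8a, C6, C7, C9 and Hc (the gene of component 5) had none.

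Serping1 encodes the C1 inhibitor, which restrains the complement and contact proteases. It was highest in delta wells, at 352 ± 169 CPM, against 181 ± 80.2 CPM in glucagon-high, 99.0 ± 62.5 CPM in Ppy-high and 38.2 ± 25.4 CPM in beta wells. Glucagon-high wells were above delta wells on 1 of 6 plates. Olfm1 encodes olfactomedin-1 (noelin), a secreted glycoprotein of neurons. It averaged 75.0 ± 55.5 CPM in glucagon-high wells and 90.9 ± 70.6 CPM in delta wells, with 13.6 ± 21.1 CPM in Ppy-high and 24.1 ± 5.2 CPM in beta wells, and the first pair did not differ beyond its spread.

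Rnase4 encodes a secreted ribonuclease that cuts RNA after uridine. It averaged 276 ± 123 CPM in glucagon-high, 41.3 ± 40.9 CPM in Ppy-high, 441 ± 104 CPM in beta and 216 ± 142 CPM in delta wells. Il1r1 encodes the signalling receptor of interleukin-1. It averaged 165 ± 87.8 CPM in glucagon-high, 98.4 ± 43.7 CPM in Ppy-high, 453 ± 78.7 CPM in beta and 126 ± 128 CPM in delta wells. Both were lower in glucagon-high than in beta wells on all 6 plates, with log2 fold changes of −0.46 ± 0.14 for Rnase4 and −1.21 ± 0.14 for Il1r1. Sesn3 encodes sestrin 3, a stress protein induced by FoxO factors that restrains mTORC1. It averaged 141 ± 67 CPM in glucagon-high, 152 ± 93.7 CPM in Ppy-high, 99.0 ± 23.3 CPM in beta and 105 ± 63.3 CPM in delta wells. The log2 fold change against beta wells was 0.77 ± 0.19, but the order differed between plates. Glucagon-high wells were above beta wells on ppx replicate 1 (97.6 against 65.2 CPM) and below them on ppx replicates 2 (70.9 against 123 CPM) and 3 (72.5 against 112 CPM). On the sham plates they were above beta wells throughout, at 196 to 208 CPM against 74.7 to 112 CPM.

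Where genes overlap, reads may have been split in counting, and the use of strand is not given in the sources used here. On GRCm38 (GENCODE M21), Rnase4 lies at chr14:51091077-51106151 on the plus strand and overlaps Ang on the same strand. Ang had 517 UMIs in kept wells, against 3062 for Rnase4. Il1r1 at chr1:40225080-40317257 on the plus strand overlaps Gm38070, which had 401 UMIs against 2812 for Il1r1. In glucagon-high wells Ang averaged 63.7 ± 70.4 CPM on ppx and 85.7 ± 35.6 CPM on sham plates.

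In glucagon-high wells after ppx, the genes of this group were called in 0 of 9 cases, and the edgeR quasi-likelihood test called 0.0% of 2328 genes at an adjusted p of 0.05. DESeq2 also called 0. At an unadjusted p under 0.05 edgeR counted 129 of the 2328 genes and DESeq2 51. Of the 9 genes, 7 had an unadjusted p under 0.05 with a lower level in ppx, where the share of all genes was 3.09%, and 6 had all ppx plates below all sham plates, where the share was 11.5%. The share with all ppx plates above all sham plates was 2.96%, and the ppx sums were the shallower ones. The 9 genes were named with results of this contrast known, so these counts describe them and support nothing further. Their median log2 fold change was −1.01, and that of all tested genes was 0.00.

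**Figure D2:**
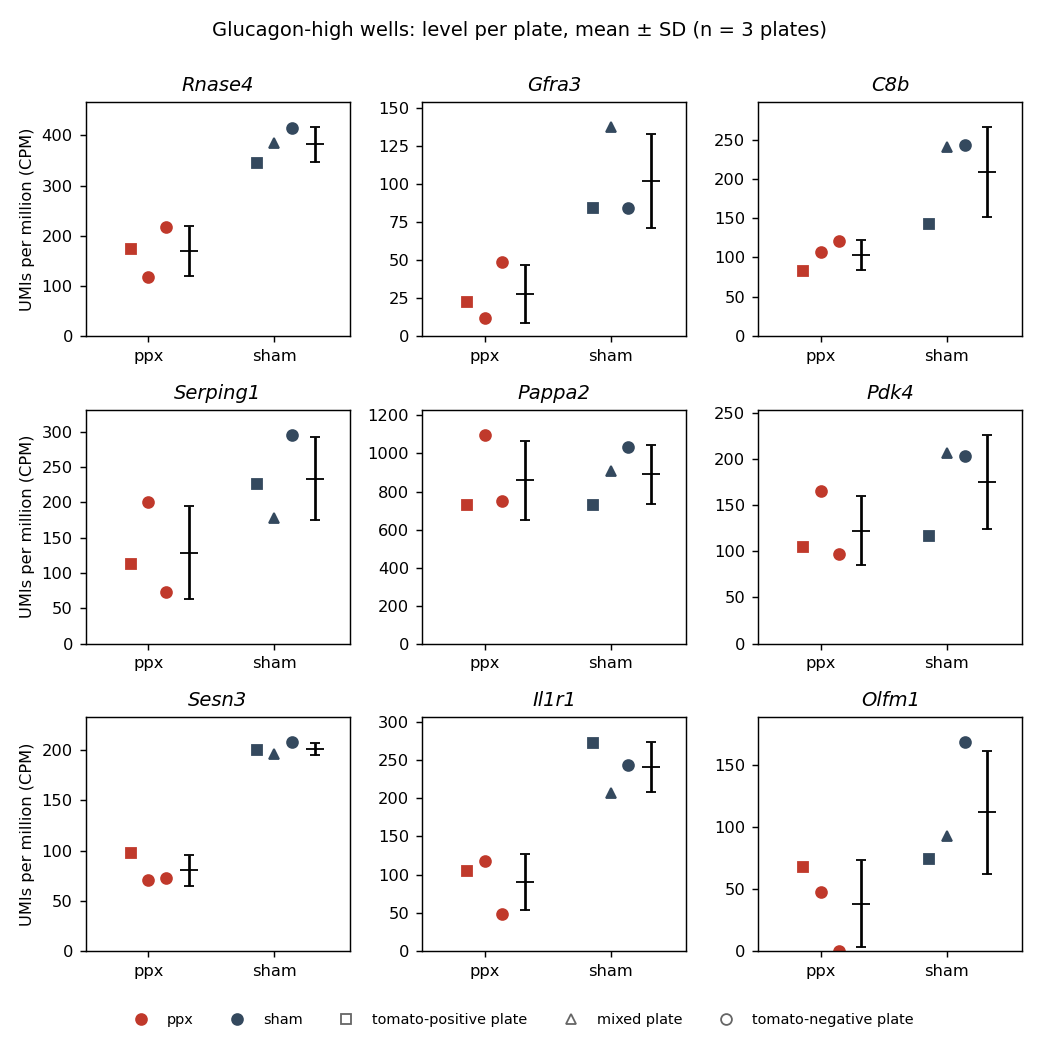
Level of each gene (CPM, linear axis from 0) in glucagon-high wells of each plate, ppx left of sham, with the mean and SD of 3 plates beside the points and the tomato sort shown by the symbol. The ppx plates lie below the sham plates without overlap for Rnase4, Gfra3, C8b, Sesn3, Il1r1 and Olfm1, and the groups overlap for Serping1, Pappa2 and Pdk4.

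Among the secreted proteins, Rnase4 had 173, 118 and 218 CPM on ppx replicates 1, 2 and 3, against 346, 385 and 415 CPM on sham replicates 1, 2 and 3. The groups did not overlap. The tomato-positive plate was the middle one of the ppx plates and the lowest of the sham plates. The log2 fold change was −1.11 ± 0.25 (adjusted p = 0.170), the second smallest unadjusted p of all tested genes. It rested on 42 UMIs in ppx and 313 in sham wells. The adjusted p over the alternatives ran from 0.0156, with no filter on low counts, to 0.846, with DESeq2.

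C8b had 82.6, 106 and 121 CPM on the ppx plates, against 142, 240 and 243 CPM on the sham plates. The groups did not overlap, although sham replicate 1, tomato-positive, was nearer to the ppx plates than to the other sham plates. The log2 fold change was −0.97 ± 0.33 (adjusted p = 0.596). Serping1 had 113, 201 and 72.5 CPM on the ppx plates and 226, 179 and 296 CPM on the sham plates. Here ppx replicate 2 lay above sham replicate 2, and the log2 fold change was −0.66 ± 0.30 (adjusted p = 0.874). Olfm1 had 67.6, 47.3 and 0 CPM on the ppx plates and 74.3, 92.8 and 168 CPM on the sham plates. The 0 on ppx replicate 3 allows up to 72.5 CPM at its depth, close to sham replicate 1, and the log2 fold change was −1.01 ± 0.48 (adjusted p = 0.886).

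Pappa2 showed no difference of that size. It had 728, 1099 and 749 CPM on the ppx plates and 727, 910 and 1034 CPM on the sham plates, which overlapped throughout. Its log2 fold change was 0.07 ± 0.20, with a 95% interval of −0.32 to 0.46 (adjusted p = 1.0). It was the most strongly counted of the 9 genes in these wells, with 221 UMIs in ppx and 724 in sham wells.

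Of the receptors, Gfra3 had 22.5, 11.8 and 48.3 CPM on the ppx plates, against 84.0, 137 and 84.0 CPM on the sham plates. All ppx plates were below all sham plates, on 6 ppx and 85 sham UMIs. Its log2 fold change was −2.01 ± 0.54 (adjusted p = 0.257). Il1r1 had 105, 118 and 48.3 CPM on the ppx plates, against 271, 206 and 243 CPM on the sham plates. No ppx plate came near a sham plate. Its log2 fold change was −1.16 ± 0.30 (adjusted p = 0.239).

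Of the metabolic regulators, Sesn3 had 97.6, 70.9 and 72.5 CPM on the ppx plates, against 200.4, 196 and 208 CPM on the sham plates. The sham plates lay between 196 and 208 CPM, each above every ppx plate. Its log2 fold change was −1.14 ± 0.30 (adjusted p = 0.241). Pdk4 had 105, 165 and 96.7 CPM on the ppx plates, against 116, 206 and 203 CPM on the sham plates. The groups overlapped, and the log2 fold change was −0.38 ± 0.33, with a 95% interval of −1.01 to 0.26 (adjusted p = 0.965).

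When 1 plate was left out at a time, none of the 9 genes passed the test. The number of called genes was 3 without ppx replicate 1, 1 without ppx replicate 3, 2 without sham replicate 2 and 1 without sham replicate 3. The log2 fold change of Rnase4 then ran from −1.24 to −0.94, that of Sesn3 from −1.41 to −1.04, that of Il1r1 from −1.31 to −1.01 and that of Gfra3 from −2.35 to −1.68. Olfm1 ran from −1.68, without ppx replicate 1, to −0.75, without ppx replicate 3. On tomato-negative and mixed plates alone (2 ppx, 2 sham), the log2 fold change was −1.30 for Rnase4, −1.15 for Il1r1, −1.40 for Sesn3 and −1.03 for C8b.

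**Figure D3:**
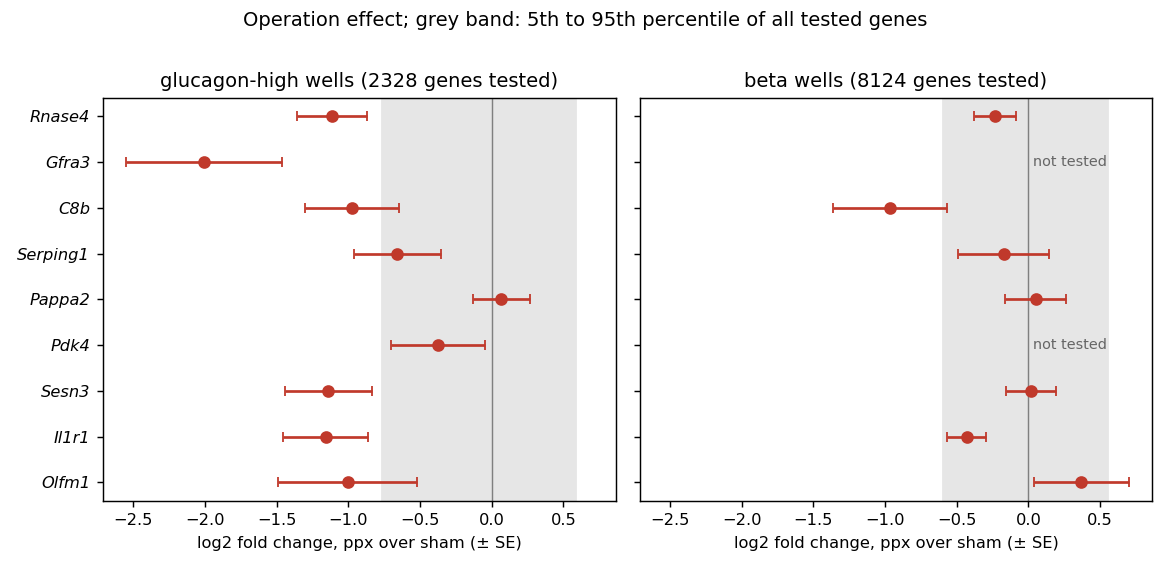
Fitted log2 fold change of ppx over sham with its SE (bars) for each gene in glucagon-high wells (left) and in beta wells (right), beside the range of all tested genes from the 5th to the 95th percentile (grey). In glucagon-high wells 6 genes lie left of the grey band, and in beta wells C8b alone does, with Gfra3 and Pdk4 not tested there.

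The share of glucagon-high wells with a UMI was compared after thinning every well to 1000 UMIs, which left out 2 shallower sham wells. It was 21.3% of 47 ppx wells and 32.2% of 177 sham wells for Rnase4, 4.26% and 24.3% for Il1r1, 6.38% and 20.9% for C8b. It was 14.9% of ppx and 20.3% of sham wells for Sesn3 and 17% and 20.9% for Serping1. The ppx share was not the lower one for Pdk4, at 21.3% of ppx and 13.6% of sham wells, for Olfm1, at 8.51% and 7.34%, and for Pappa2, at 59.6% and 55.9%. Gfra3 was seen in 0 of 47 thinned ppx wells, with an exact 95% upper bound of 7.55% for wells with a UMI at that depth, and in 8.47% of the sham wells, while without thinning it was seen in 8.51% of ppx and 31.3% of sham wells. In beta wells thinned alike, at median depths of 3948 UMIs in ppx and 4610.5 UMIs in sham wells before thinning, the shares were 1.52% in ppx and 1.79% in sham wells for C8b. Gfra3 was seen in 0 of 591 ppx and 0 of 391 sham beta wells, with upper bounds of 0.622% and 0.939%. Without thinning, 31.9% of ppx and 50.3% of sham glucagon-high wells had a C8b UMI, at median depths of 4772 and 3929 UMIs.

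In beta wells, where 7 of the 9 genes were abundant enough to test, none was called, and 0.406% of 8124 genes were. Il1r1 had 335, 420 and 415 CPM on the ppx plates and 485, 560 and 500 CPM on the sham plates. Of the 7 tested genes it was the one with all ppx plates below all sham plates, which held for 5.08% of all tested genes, and its log2 fold change was −0.43 ± 0.14 (adjusted p = 0.209). Rnase4 had 233, 506 and 452 CPM on the ppx plates and 470, 504 and 479 CPM on the sham plates, so that only ppx replicate 1 stood apart, on 19 wells. Its log2 fold change was −0.23 ± 0.15 (adjusted p = 0.708). Sesn3, at 0.02 ± 0.17, and Pappa2, at 0.05 ± 0.21, were near 0, and C8b was at −0.97 ± 0.40 (adjusted p = 0.414) on 30 ppx and 43 sham UMIs. Pdk4 was too low in beta wells to test. It had 0, 2.52 and 0 CPM on the ppx plates and 14.9, 7.1 and 4.21 CPM on the sham plates. These values rested on 0 to 6 UMIs a plate. The 0 on ppx replicate 1 allows up to 27.9 CPM at its depth, above every sham plate.

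In Ppy-high wells, Pappa2 alone was counted deeply enough to test, with 0.0% of 297 genes called. It had 325, 424 and 665 CPM on the ppx plates and 619, 286 and 324 CPM on the sham plates, and its log2 fold change was 0.65 ± 0.42 (adjusted p = 0.886), in a fit without sham replicate 1, which had 4 such wells. In CPM, Sesn3 ran the other way there than in glucagon-high wells, but it was not tested in Ppy-high wells. It had 325, 186 and 133 CPM on the ppx plates and 77.3, 81.9 and 108 CPM on the sham plates, on 29 ppx and 7 sham UMIs. After thinning as in glucagon-high wells, the shares of Ppy-high wells with a Sesn3 UMI were alike. They were 16.3% of 43 ppx wells and 16.7% of 18 sham wells (exact intervals 6.81% to 30.7% and 3.58% to 41.4%). Without thinning they were 44.2% of ppx and 26.3% of sham wells. In the test of the difference itself, the operation effect in glucagon-high minus that in Ppy-high wells, Sesn3 had −2.35 ± 0.74 (adjusted p = 0.595), and 0.0% of 926 genes were called. The other 6 tested genes had adjusted p from 0.994 to 0.995, so a difference between the classes was not shown. On simulated counts this test recovered 1.02% of changes of 1 and 37% of changes of 2 on the log2 scale, so it could show little. In delta wells, without ppx replicate 2 (2 wells), Rnase4 had 0.20 ± 0.51 and Serping1 −0.42 ± 0.32 (adjusted p = 0.992 for both), with 0.0% of 480 genes called.

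Glucagon-high and Ppy-high wells were mixed in other proportions in the 2 groups. Of these wells together, 29.2%, 52.4% and 58.3% were Ppy-high on the ppx plates and 7.27%, 8.57% and 12.3% on the sham plates. The mean was 46.6 ± 15.4% in ppx and 9.39 ± 2.63% in sham plates (SD, n = 3 each), 37.2 points apart (exact two-sided permutation test, p = 0.1, the smallest that 3 plates against 3 can give). A mixture of the 2 classes at the sham level of each, weighted by the UMI shares of each plate, gives the change that mix alone would bring. For Rnase4 it was −0.50 on the log2 scale, where −1.56 was observed, for C8b −0.45 where −1.47 was observed, and for Il1r1 −0.34 where −1.25 was observed. For Gfra3 it was −0.49 where −2.60 was observed, for Olfm1 −0.50 where −1.78 was observed, and for Serping1 −0.19 where −1.28 was observed. For Pdk4 it was −0.46 of −0.90 and for Sesn3 −0.29 of −0.66. For Pappa2 it was −0.28 where −0.23 was observed. The part of the mix in the lower levels was not tested.

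**Figure D4:**
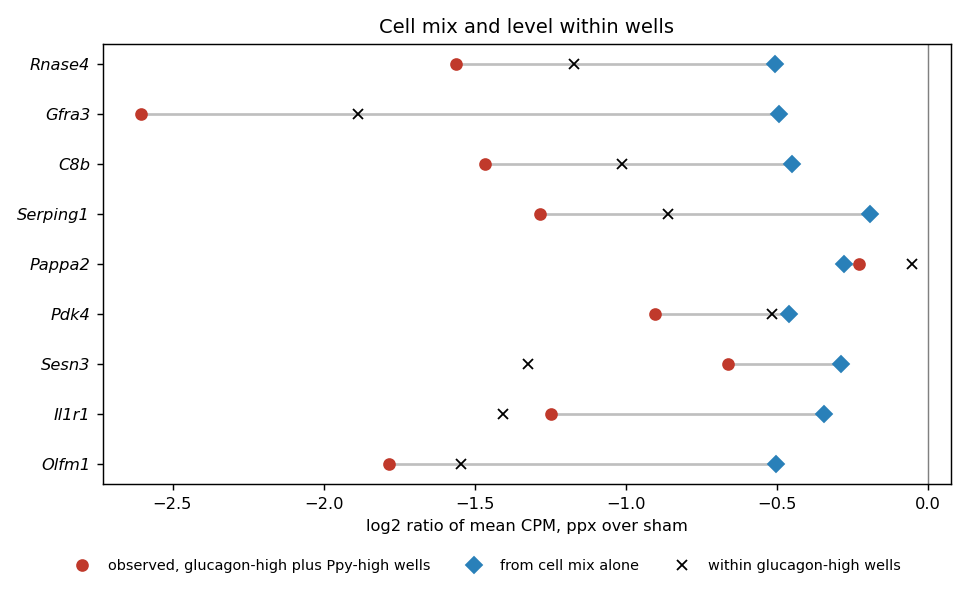
Log2 ratio of mean CPM, ppx over sham, for glucagon-high and Ppy-high wells together as observed (circles), as the change in cell mix alone would give (diamonds), and within glucagon-high wells (crosses). The observed ratio is below the ratio from mix for 8 of the 9 genes, and Pappa2 has both near −0.2 to −0.3. The genes were chosen with this contrast known, and the share over all genes was not worked out, so the count is a description.

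The glucagon-high wells themselves held more Ppy in ppx, and its part in the lower levels was not tested. Ppy averaged 47805 ± 12198 CPM in ppx and 19620 ± 11860 CPM in sham plates (log2 fold change 1.41 ± 0.38, adjusted p = 0.241). The 12 markers of Ppy cells summed to 60753, 82400 and 71413 CPM on the ppx plates and 39253, 13241 and 42037 CPM on the sham plates, with 7 to 9 of the 12 detected and Aqp3, Fxyd2 and Fgb at 0. Nearly all of this was Ppy and Pyy, at a pooled 48524 and 20538 CPM in ppx and 19159 and 11303 CPM in sham wells. The largest of the other markers were Tspan8, at 166 CPM in ppx wells, and Meis2, at 158 CPM in sham wells. In the wells below 2% Ppy, 26 in ppx and 151 in sham plates, the pooled level was 227 CPM in ppx and 411 CPM in sham wells for Rnase4, 7.09 and 109 CPM for Gfra3, and 121 and 215 CPM for C8b. It was 106 CPM in ppx and 204 CPM in sham wells for Sesn3, 128 and 253 CPM for Il1r1, 184 and 218 CPM for Serping1 and 979 and 882 CPM for Pappa2. With those wells fitted by plate, an alternative added after the data were seen, the log2 fold change was −0.82 for Rnase4, −0.94 for Il1r1, −0.92 for Sesn3, −0.76 for C8b, −3.73 for Gfra3, −0.85 for Olfm1, −0.21 for Serping1, −0.14 for Pdk4 and 0.19 for Pappa2, and none was called. Gfra3, Serping1, Pdk4 and Pappa2 thus moved by over 1.5 times. The Gfra3 values in the wells below 2% Ppy rested on 1 ppx and 76 sham UMIs, with 2 such wells on ppx replicate 3. In the glucagon-high wells at 2% Ppy or more, Gfra3 had 42.3 CPM in ppx and 68.9 CPM in sham wells, on 5 and 9 UMIs. Leaving out wells high in any other hormone, whatever the number of wells left, was also added after the data were seen. It gave −1.07 for Rnase4, −1.18 for Sesn3, −0.80 for C8b, −0.58 for Il1r1, 0.21 for Pdk4 and 0.15 for Pappa2, none was called, and Gfra3, Olfm1 and Serping1 were too low to test.

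Insulin was uneven too. Ins1 and Ins2 made up 3.98%, 0.259% and 0.181% of glucagon-high UMIs on the ppx plates and 3.84%, 1.09% and 1.501% on the sham plates, and the 16 beta markers summed to 51646, 6241 and 4930 CPM against 52029, 16687 and 21102 CPM, with Npy at 0. Nearly all of the beta sum was Ins1, Ins2 and Iapp. If beta RNA entered these wells in the ratio of the insulins, it would bring 31.0, 8.31 and 5.58 CPM of Rnase4 on the ppx plates and 69.7, 24.2 and 28.2 CPM on the sham plates, and 44.6, 6.91 and 5.12 CPM of Il1r1 against 71.9, 26.9 and 29.4 CPM. The part of beta RNA in the values of both genes was not tested. The 10 delta markers summed to 11945, 13499 and 12398 CPM on the ppx plates and 21089, 18184 and 7694 CPM on the sham plates, with Lepr at 0. Most of this was Sst, at a pooled 11479 CPM in ppx and 14736 CPM in sham wells. The part of delta RNA in the Serping1 and Olfm1 values was not tested. Acinar markers were near 0 (0 to 24.2 CPM, 8 of 9 genes at 0), and endothelial, stromal, macrophage and Schwann lists summed to at most 53.0, 82.7, 141 and 32.3 CPM on any plate.

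The glucagon threshold touched few wells. Between 2.3% and 5% Gcg there were 0 ppx wells and 5 sham wells, with 504 CPM of Pappa2 and 126 CPM of C8b. Just outside, from 0.5% to 2.3%, there were 25 ppx and 111 sham wells, with Pappa2 at 188 and 66.7 CPM and C8b at 0 and 33.4 CPM. Gfra3 had 0 UMIs there in both groups.

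Other genes of the same pathways were read from lists chosen with earlier results known, and 0 genes of any list were called in glucagon-high wells. Of 26 alpha identity genes 20 were tested, 11 with a log2 fold change below 0 and 9 above, with a median of −0.10. The smallest p-value was that of Fev, a transcription factor, at −1.14 ± 0.47 (adjusted p = 0.839). Gcg was at 0.28 ± 0.30 and Ttr, the thyroxine carrier transthyretin that alpha cells make in quantity, at −0.21 ± 0.27. Of 24 complement genes, C8b, Serping1 and Cd59a were tested, and Cd59a, which blocks the membrane attack complex on the cell's own surface, was at 0.68 ± 0.34 (adjusted p = 0.911). Of 15 interleukin-1 pathway genes 3 were tested, and Nfkbia, the inhibitor of NF-kappa-B that the pathway itself induces, was at 0.82 ± 0.28 (adjusted p = 0.596). The interleukins Il1a and Il1b and the antagonist Il1rn had no UMI.

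Of 17 FOXO target and fasting genes 6 were tested, 5 of them below 0, with a median of −0.21, and beside Sesn3 the smallest p was that of Irs2, an insulin receptor substrate, at 0.48 ± 0.26 (adjusted p = 0.922). Of 12 genes of the pyruvate dehydrogenase switch 3 were tested, all below 0, and Pdhb, a subunit of the enzyme, was at −0.19 ± 0.37. Of 15 genes of IGF binding and its proteases, Pappa2 and Igfbp7 were tested, and Igfbp7 was at −0.23 ± 0.20. Igfbp5, a substrate of pappalysin-2, had 2 UMIs in ppx and 7 in sham wells. Of 8 ribonuclease genes 3 were tested, with Ang at −0.82 ± 0.56 (adjusted p = 0.951) and the ribonuclease inhibitor Rnh1 at 0.30 ± 0.36. Of the GDNF receptor and olfactomedin lists, Gfra3 and Olfm1 were the genes tested. Of 15 immediate early genes 14 were tested, 12 of them above 0, with a median of 0.20. Zfp36 was at 0.56 ± 0.20 (adjusted p = 0.678) and Fosb at 0.59 ± 0.21 (adjusted p = 0.697).

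Of the marker lists, 5 of 12 Ppy cell genes were tested, 4 above 0, with a median of 0.80, led by Pyy, a peptide hormone, at 1.14 ± 0.30 (adjusted p = 0.241). Ins1, at −0.88 ± 0.54, and Ero1lb, at −0.31 ± 0.28, had the smallest p of the 6 beta markers tested, which had a median of −0.25. Rbp4, the retinol carrier, at −0.63 ± 0.25, and Cd24a, at −0.28 ± 0.38, led the 3 delta markers tested, all below 0. Clu, at 0.44 ± 0.34, and Spp1, at 0.45 ± 0.41, led the 3 duct markers tested, and Arg1, at −0.84 ± 0.51, was the 1 epsilon marker tested. Ghrl (ghrelin), the hormone of epsilon cells, was not tested and had 278, 0 and 0 CPM on the ppx plates and 103, 0 and 0 CPM on the sham plates, so that its UMIs came from the tomato-positive plates alone, 37 in ppx and 32 in sham. None of the acinar, endothelial, macrophage, stromal and Schwann markers was abundant enough to test.

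The gene most like each of the 9 in pattern was taken by Pearson's r of log2(CPM + 10) over 22 sums of a class on a plate, among 8025 genes with at least 100 UMIs. These points share plates and depths, and r is a description. It was Klf4 for Pappa2 (0.93), Actr2 for Il1r1 (0.89), Prps1 for Rnase4 (0.88), Gnas for Serping1 (0.86), Cryba2 for Pdk4 (0.85), Zfp444 for Olfm1 (0.82) and Xrcc4 for Sesn3 (0.74). Gfra3, with 94 UMIs, was not compared, and the gene most like C8b is not given. With Gcg itself, r was 0.80 for Pdk4, 0.69 for Pappa2 and 0.69 for C8b, and between 0.07 and 0.40 for the other 5 genes.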

How the data were processed

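Each plate had 1 table of UMI counts per gene and well, deposited by the authors as whole numbers with no normalization. HISAT 0.1.6 and mm10 are named in the submitters' processing notes, with the counting tool, annotation and strand setting not given in the sources used here. In the series' design text 2300 cells from 6 pancreata are stated, with MetaCell grouping that was not used here. Wells with under 500 UMIs (96) or over 20% mitochondrial UMIs (93) were left out, and doublets were not removed. Plates held 1250861 to 1508513 UMIs. Classes used thresholds of 2.3% (Gcg), 2% (Ppy), 3.3% (Ins1 plus Ins2) and 0.73% (Sst).

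Counts were summed by class and plate (at least 5 wells) and tested by the quasi-likelihood F test of edgeR 4.0.16 in R 4.3.3, after filterByExpr and TMM scaling, with Benjamini-Hochberg adjustment over all genes tested. Classes were compared with plate as a block. DESeq2 1.42.0, other scalings, filters, thresholds and left-out plates were alternatives. On simulated counts for the ppx contrast in glucagon-high wells (2135 genes), 21.3% of changes of 1 and 83.5% of changes of 2 on the log2 scale were recovered. The simulations set the same spread between plates for every gene. Intervals for shares of wells and for ratios of UMIs are exact at 95% and, like limits for counts of 0 (3 counts), cover counting error only. The 95% intervals of log2 fold changes are instead normal approximations from the standard error between plates. With so few plates they may be too narrow.

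The members and lists were chosen with earlier results of these data known. The text names the 9 genes and the main hormones, the 2 genes with the smallest p of each list, up to 10 called genes per direction, and the gene most like each of the 9, except where a gene is not reported here. Genes at or near 0 and overlapping genes were named after their values were seen. Standard errors were taken from the F statistic. Replicate numbers are not stated to pair plates, and same-numbered plates had correlations of deviations of 0.052, 0.018 and 0.033.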

Additional observations from a re-analysis of the deposited data

How the results depend on the processing

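Of 728 values recomputed under an alternative, 657 were classed as unchanged, by a rule that differed with the kind of value. For effects of the operation on the 9 genes, direction and side of the threshold had to be kept. For comparisons of classes the shift had to be small. A count of called genes had only to stay near the main count, so it could differ from it. The cause was not tested for those that changed. In glucagon-high wells the count of genes called after ppx, 0, became 6 with no filter on low counts, 2 without both tomato-positive plates, 7 with wells high in another hormone left out (1 ppx plate remained), 1 with hormone genes out of the library sizes and 0 to 3 with 1 plate left out. With the plate number as a replicate block it was 3, in Ppy-high wells 3 and in beta wells 66. Same-numbered plates showed little correlation of their deviations. So few plates cannot show whether the numbers pair them, and replicate 1 was the tomato-positive sort in both groups. With the block no call of the 9 genes changed. In Ppy-high wells the count of 0 became 1 with no filter and without positive plates, and 0 to 1 with 1 plate left out. In beta wells 33 became 13 with DESeq2, 64 with no filter and 12 to 49 with 1 plate left out. In delta wells 0 became 1 with no filter and without positive plates, and 0 to 2 with 1 plate left out. Between classes, 69 genes against Ppy-high wells became 28 with DESeq2, 45 with Ppy-carrying wells left out and 39 to 76 with 1 plate left out. Against beta wells 1163 became 752 with wells of another hormone left out in any number. Against delta wells 252 became 148 with DESeq2, 85 without positive plates, 126 with other hormones and 148 with Ppy left out, and 132 to 267 with 1 plate left out. The interaction count of 0 became 1 with no filter, 2 without positive plates and 0 to 2 with 1 plate left out. The median over the 9 genes of the observed minus the mix log2 ratio, a description since the genes were chosen with this contrast known, was -1.02 and by ppx plate -0.93 to -0.75, and was -0.91 at a 1% Gcg threshold and -1.09 to -0.85 with 1 plate left out. Some log2 fold changes reversed. Pappa2 in glucagon-high wells, 0.07, was -0.16 with no filter and -0.18 to 0.17 with 1 plate left out, and Pdk4, -0.38, was 0.11 and 0.21 with other hormones left out. In beta wells Pappa2 was -0.070 to 0.119, Sesn3 -0.084 to 0.10 and Serping1 -0.45 to 0.11 with 1 plate left out, Serping1 was 0.10 without positive plates and Sesn3 -0.0012 with the replicate block. In delta wells Rnase4 was -0.012 to 0.59 with 1 plate left out. In the interaction with 1 plate left out, C8b was -5.51 to 0.84, Pdk4 -0.55 to 0.088 and Rnase4 -1.36 to 1.42. C8b there was 0.60 without positive plates and 0.89 with other hormones left out, Il1r1 was 0.065 with other hormones left out, and Pdk4 was 0.032 with DESeq2 and 0.14 at 1% Gcg. Depth limits all of these values: the smallest plate sums were 41379 UMIs in glucagon-high, 12931 in Ppy-high, 107368 in beta and 2992 in delta wells.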

Other observations

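Wells that carried more than 1 hormone without glucagon, and wells with none of the 4 hormones, were in none of the comparisons. In 154 wells high in insulin and somatostatin, Il1r1 stood at a pooled 352 CPM and Rnase4 at 313 CPM, against 462 and 477 CPM in beta wells. Serping1 was at 257 CPM in 321 wells high in Ppy and somatostatin, against 326 CPM in delta wells. Gfra3 had no UMI in any of these wells. In 112 wells with none of the 4 hormones, which carried 4719 CPM of the macrophage gene Cd74 and 2114 CPM of the stromal gene Sparc, Pappa2 was at 6 CPM and Sesn3 at 19 CPM, and Serping1 was at 127 CPM.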
